A study of Mus musculus with 4 samples.

Results

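The genes described here encode the MAP kinase cascade, the relay of protein kinases that ends in the phosphorylation of AP-1 factors. They were chosen by symbol alone, as the protein-coding genes named Mapk, Map2k, Map3k or Map4k followed only by a number, and 43 of the 21627 protein-coding genes on the chromosomes of the peak list met this rule (5 Map4k, 18 Map3k, 7 Map2k and 13 Mapk genes). Their open chromatin comprised 419 regions of 113404. Of these, 313 had a summit inside a member or within 1 kb of it. A further 106 lay farther away but were closer to a member's end, at most 100 kb off, than to the end of any other protein-coding gene.

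The study profiled wild-type (WT) mouse colonic organoids, self-organising cultures of colonic epithelium, by bulk ATAC-seq, an assay whose Tn5 enzyme cuts and tags the DNA that is free of packed nucleosomes. The groups were colitis organoids with 10 µM T-5224, colitis organoids with 0.1% DMSO, control organoids with 10 µM T-5224 and control organoids with 0.1% DMSO. Each was treated for 24 h and held 1 library, and all came from the batch DSS33. T-5224 is a small molecule made to block the binding of Fos and Jun proteins to DNA, and DMSO was its vehicle; colitis organoids derived from mice with chronic colitis and control organoids from healthy mice. All groups grew in medium with EGF, a ligand that itself activates the ERK cascade, and the cells were frozen and thawed before nuclei were prepared. The library names give 1 code (M4) for both colitis libraries and another (M5) for both control libraries.

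In a MAP kinase cascade, a MAP3K phosphorylates a MAP2K, which phosphorylates a MAP kinase on the threonine and the tyrosine of its activation loop. MAP4Ks are Ste20-type kinases that can switch on MAP3Ks. The ERK branch carries growth factor signals, and the JNK and p38 branches carry stress and cytokine signals. JNK phosphorylates Jun, and ERK and p38 act on factors that induce Fos, so all 3 branches feed AP-1. In the intestine ERK signalling drives crypt cell proliferation, and p38 and JNK are activated in inflamed epithelium.

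The values came from 1 deposited peak list in which the libraries are not separated. The sources used here do not name the libraries behind it, so colitis was not compared with control, nor T-5224 with DMSO. The measure is the fold enrichment of the pileup at a summit over an expected background of 7.63, the same at every base, each with 1 added, as the authors' peak caller gave it. Each value is given with an exact Poisson 95% interval from its pileup, which reflects only the error of counting. Library depths are unknown and no value has replicates, so no test between members was made and no p-value is given. In bulk material, open chromatin in few cells and weaker opening in many cells cannot be told apart.

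The material carried the marks of colon epithelium. All 10 epithelial marker genes examined had a summit in the gene or within 1 kb, with a median of 39.4-fold, led by Krt8 with 59.1-fold and Krt19 with 51.7-fold. Among 10 leukocyte markers 5 had one, with a median of 1.39-fold, and 3 had one of at least 5-fold. Ptprc, Cd3e, Cd79a and Lyz2 were among those with none, and the highest were Cd14 with 11.7-fold and Cd4 with 8.81-fold. Among 10 stromal and endothelial markers 9 had one, and Col1a2 had none. The median over all 10, counted in the same way, was 6.72-fold, and the highest were Vwf with 29.0-fold and Col1a1 with 16.3-fold. What other cell types contributed to the members' values was not tested.

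Every one of the 43 members had a summit in the gene or within 1 kb, where 74.5% of all protein-coding genes did. The strongest summit of a member had a median of 37.4-fold and ranged between 6.61-fold at Map3k19 and 90.9-fold at Map3k3. The median of all protein-coding genes was 17.4-fold, with genes lacking a summit counted as 0. Over only the 16112 genes with a summit, a set more like the members, it was 27.1-fold. Of the members, 33 lay above 17.4-fold. Above 36.3-fold, the 75th percentile of all protein-coding genes with the same zeros, lay 23. Within 1 kb of an outer end of the gene, 40 of 43 members had a summit, where 64.3% of all protein-coding genes did. The median there was 37.0-fold for members and 9.62-fold for all protein-coding genes. Genes without a summit at an end counted as 0 in both medians, which widens their distance. The 3 members without one at an outer end were Map3k19, Map2k5 and Mapk10.

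**Figure D1:**
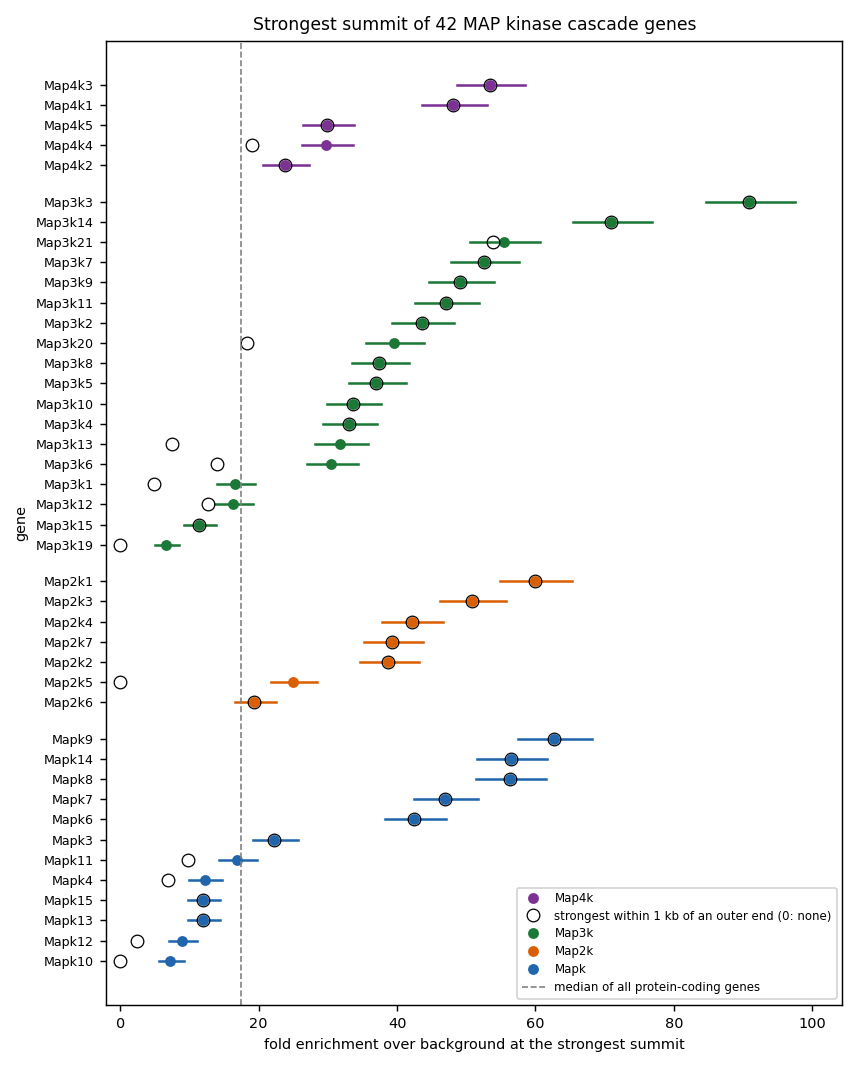
Fold enrichment at the strongest summit in each member or within 1 kb of it (filled points, coloured by kinase tier, with 95% Poisson intervals; 42 of the 43 members are drawn) and within 1 kb of an outer gene end (open circles, 0 where there was none). The dashed line is the median of all protein-coding genes, 17.4-fold, with genes lacking a summit counted as 0. Map3k3 stands alone at 90.9-fold, and the Mapk genes fall into an upper stretch at 42.4-fold and above and a lower one at 22.3-fold and below. Open circles far left of their filled point mark genes whose strongest summit lies inside the gene, away from its outer ends. In Map2k5, Map3k12, Mapk12, Map3k1 and Map3k6 the strongest summit lies away from the outer ends but within 1 kb of an annotated start.

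Members were long genes, with a median length of 57064 bp, where that of all protein-coding genes was 17330 bp. Within each of 3 length classes the members' median was also the higher one. Under 20 kb the median strongest fold was 23.8 for 13 members and 7.88 for 11652 genes. Between 20 and 100 kb it was 49.2 for 19 members and 25.4 for 7549 genes. Over 100 kb it was 29.8 for 11 members and 23.1 for 2426 genes. Genes lacking a summit counted as 0 here too. All members had a summit, but only 62.1%, 88.0% and 92.4% of all genes in the 3 classes did.

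At the head of the cascade, all 5 Map4k genes had a summit at an outer end, where 64.3% of all protein-coding genes did. A full count over so few genes says little about the tier. Map4k3, which encodes GLK, a kinase known for amino acid and T-cell receptor signals, had 53.4-fold (48.7 to 58.6). Map4k1, which encodes HPK1, a kinase best known from blood cells, had 48.1-fold (43.6 to 53.0). That summit lay 107 bp upstream of the first Map4k1 start site and also within 1 kb of Eif3k, which encodes a subunit of a translation initiation factor, so it cannot be given to Map4k1 alone. Map4k5 (KHS) had 29.9-fold (26.4 to 33.8), at an end it shares with Atl1. Map4k4, which encodes HGK, an upstream kinase of JNK signalling and cell migration, had 29.8-fold (26.3 to 33.7) at a summit 35726 bp inside the gene, and 19.0-fold at an outer end. Map4k2 had the lowest value of the tier, 23.8-fold (20.6 to 27.2), near Men1. The intervals of the upper pair did not overlap those of the other 3.

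The Map3k tier, where most stress and receptor signals enter, spanned the whole range. Map3k3 (NCBI Gene 26406, chromosome 11, 106084587 to 106156656) encodes MEKK3, a kinase that acts above MEK5 and ERK5 and in cytokine signalling. Its 90.9-fold summit (84.6 to 97.5) lay 211 bp upstream of its start site, and only 20 of the 21627 protein-coding genes had a higher value. Its promoter, from RefSeq on GRCm38.p6 (plus strand, chr11:106084337-106084636, 250 bases before to 50 after the start), is shown because it holds the strongest summit of all members, at base 40. Capitals mark the letters CCAAT on either strand, which occur here 4 times, each time as ATTGG.
Map3k3: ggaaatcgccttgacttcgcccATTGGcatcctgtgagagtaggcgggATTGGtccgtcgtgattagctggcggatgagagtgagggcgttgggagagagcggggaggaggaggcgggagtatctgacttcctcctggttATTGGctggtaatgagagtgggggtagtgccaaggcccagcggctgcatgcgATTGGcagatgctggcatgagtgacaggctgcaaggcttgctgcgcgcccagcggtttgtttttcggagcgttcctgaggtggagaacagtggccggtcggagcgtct
The summit falls between the first 2 matches, which begin at bases 23 and 49. CCAAT was found in the promoters of 12 of 34 members (35.3%) and of 42.7% of all protein-coding genes with a promoter in the table.

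Map3k14 followed with 71.0-fold (65.4 to 76.8), a value exceeded by 414 protein-coding genes. It encodes NIK, the kinase of the noncanonical NF-κB pathway. Map3k21, which encodes MLK4, had 55.4-fold (50.6 to 60.6) at a summit 6775 bp inside the gene, in a region of 5259 bp with 8 summits, the widest of the regions that held a member's strongest summit. Its outer end reached 53.8-fold, so the inner region and the end did not differ beyond their counting error. Map3k7 had 52.5-fold (47.8 to 57.6); it encodes TAK1, which links TNF and interleukin-1 receptors to JNK, p38 and NF-κB and protects intestinal epithelial cells from death in mice.

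Another 10 Map3k genes lay between 30.5-fold and 49.2-fold. They were the mixed-lineage kinase genes Map3k9 (49.2-fold), Map3k11 (47.1-fold) and Map3k10 (33.6-fold), Map3k2 (43.6-fold), Map3k20 (39.5-fold), Map3k8 (37.4-fold), Map3k5 (37.0-fold), Map3k4 (33.0-fold), Map3k13 (31.8-fold) and Map3k6 (30.5-fold). Map3k8 encodes TPL2, which carries Toll-like receptor signals to ERK. Map3k5 and Map3k6 encode the oxidative stress kinases ASK1 and ASK2, and Map3k20 encodes ZAK, which responds to stalled ribosomes. The Map3k10 summit lay at an end shared with Zfp607b and that of Map3k11 inside the end of Pcnx3.

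At the bottom of the tier, Map3k1 had 16.6-fold (14.0 to 19.5), Map3k12 had 16.2-fold (13.7 to 19.1), Map3k15 had 11.4-fold (9.24 to 13.8) and Map3k19 had 6.61-fold (5.02 to 8.55). Map3k12 encodes DLK, known for signalling in injured axons, and Map3k15 encodes ASK3, known from the kidney. Map3k1, which encodes MEKK1, a large kinase above JNK, had a low height but many summits: 28 in 14 regions. Its strongest region was 2987 bp wide, held 6 summits and covered the annotated start. The median width of the regions holding a member's strongest summit was 1870 bp, and the median of all regions was 481 bp. The former were picked for their height, so these medians do not compare like regions. The width at the strongest summit of every protein-coding gene was not computed.

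The Map2k tier links the upstream kinases to 1 or a few MAP kinases each. Map2k1, which encodes the ERK kinase MEK1, had 59.9-fold (54.9 to 65.3), and its partner gene Map2k2 (MEK2) had 38.7-fold (34.7 to 43.1). Map2k3, which encodes the p38 kinase MKK3, had 50.8-fold (46.1 to 55.8), and the other p38 kinase gene Map2k6 (MKK6) had 19.4-fold (16.5 to 22.5). In both pairs the intervals of the partners did not overlap. The JNK kinase genes Map2k4 (MKK4) and Map2k7 (MKK7) had 42.1-fold (37.9 to 46.6) and 39.3-fold (35.2 to 43.7), which did not differ beyond counting error. Map2k5, which encodes the ERK5 kinase MEK5, had 24.9-fold (21.7 to 28.5). Its summit lay 3773 bp inside the outer bound of the gene but 7 bp upstream of its annotated start site, and no summit lay within 1 kb of its outer ends.

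Among the 13 MAP kinase genes themselves, 6 lay at 42.4-fold or higher and 7 at 22.3-fold or lower, with none between. The upper set included Mapk9 with 62.6-fold (57.4 to 68.1), Mapk14 with 56.5-fold (51.6 to 61.7), Mapk8 with 56.3-fold (51.5 to 61.6), Mapk7 with 47.0-fold (42.5 to 51.8) and Mapk6 with 42.4-fold (38.2 to 47.0). These encode JNK2, p38α, JNK1, ERK5 and the atypical kinase ERK3. The lower set was led by Mapk3, which encodes ERK1, with 22.3-fold (19.2 to 25.6), followed by the p38β gene Mapk11 with 16.8-fold (14.2 to 19.8) and the atypical kinase gene Mapk4 with 12.2-fold (9.97 to 14.7). Mapk13 (p38δ) and the atypical kinase gene Mapk15 had the same value, 11.9-fold (9.76 to 14.5). Mapk12 (p38γ) had 8.93-fold (7.06 to 11.1), and Mapk10, which encodes the JNK3 of neurons, had 7.19-fold (5.53 to 9.20).

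In the branch view, which was drawn up after the values were seen, the JNK branch had a median of 42.1-fold over 5 genes, 4 of which lay at 39.3-fold or higher, while Mapk10 was at 7.19-fold. The p38 branch had a median of 18.1-fold over 6 genes, with Mapk14 and Map2k3 high and the other 4 between 8.93-fold and 19.4-fold. The ERK5 branch held 47.0-fold at its kinase gene Mapk7 and 24.9-fold at Map2k5. Of the atypical kinase genes Mapk6 was at 42.4-fold, and Mapk4 and Mapk15 were at 12.2-fold and 11.9-fold. By tier the medians were 29.9-fold for Map4k, 37.2-fold for Map3k, 39.3-fold for Map2k and 22.3-fold for Mapk genes, within ranges that overlapped widely.

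**Figure D2:**
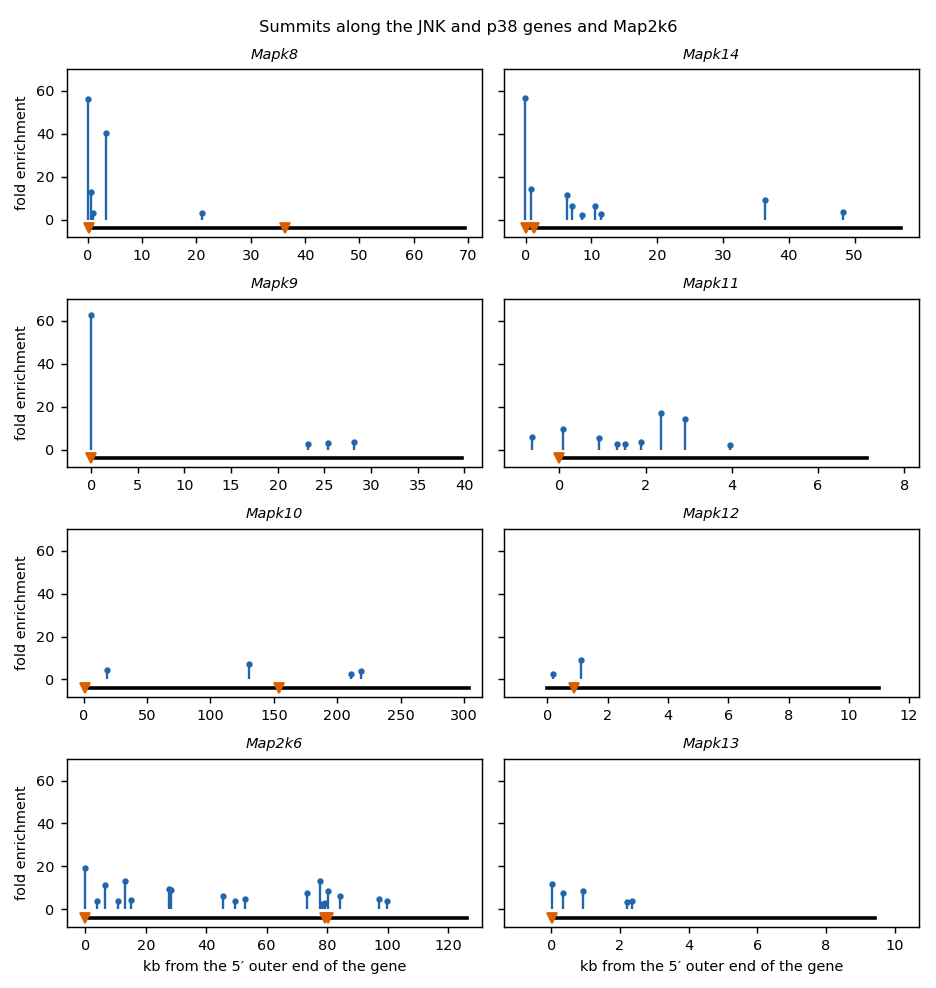
All summits in the JNK genes Mapk8, Mapk9 and Mapk10, in Map2k6 and in the p38 genes Mapk14, Mapk11, Mapk12 and Mapk13, by distance in kb from the 5′ outer end of the gene (horizontal axis) and fold enrichment (vertical axis, same scale in all panels); the black bar is the gene and orange triangles are annotated start sites. Mapk8, Mapk9 and Mapk14 have a summit above 56-fold at the first start, whereas no summit in Mapk10 passes 7.19-fold and none sits at either of its starts.

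The JNK genes, close relatives, differed widely in height. Mapk9 had 4 summits in 4 regions, the strongest 9 bp inside its outer end, and Mapk8 had 5 summits in 3 regions. Mapk10 spans 304058 bp and had 4 summits in 4 regions, at 7.19-fold, 4.29-fold, 4.06-fold and 2.67-fold, the strongest 130248 bp from the nearest outer end. Regions outside Mapk10 were higher than any inside it: the nearest protein-coding gene end of a 23.3-fold region at chromosome 5, 103231673 to 103232443, inside the noncoding gene 4930429D17Rik, was that of Mapk10, 19427 bp away. The promoters of the first start sites of Mapk8 and Mapk10 are set side by side because a summit was called in the one and not in the other. Both lie on the minus strand and come from RefSeq on GRCm38.p6, chr14:33447109-33447408 for Mapk8 and chr5:103211285-103211584 for Mapk10. Capitals mark GGGCGG on either strand in Mapk8, the letters of the GC box, and TGACGTCA in Mapk10, the letters of the cAMP response element that ATF and CREB factors bind.
Mapk8: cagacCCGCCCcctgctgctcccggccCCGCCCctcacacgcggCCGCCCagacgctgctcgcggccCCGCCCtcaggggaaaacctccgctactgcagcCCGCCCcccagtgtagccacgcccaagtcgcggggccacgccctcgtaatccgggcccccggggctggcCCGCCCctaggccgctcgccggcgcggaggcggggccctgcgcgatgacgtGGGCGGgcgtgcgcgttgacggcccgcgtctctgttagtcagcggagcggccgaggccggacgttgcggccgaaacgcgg
Mapk10: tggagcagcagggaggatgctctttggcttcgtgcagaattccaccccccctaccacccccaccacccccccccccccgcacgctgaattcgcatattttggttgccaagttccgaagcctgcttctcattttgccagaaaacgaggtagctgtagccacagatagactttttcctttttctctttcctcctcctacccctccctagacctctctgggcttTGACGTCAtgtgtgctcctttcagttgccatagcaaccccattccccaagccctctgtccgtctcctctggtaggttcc
The Mapk8 window held 7 matches to GGGCGG, none to TGACGTCA, and its summit at base 85, with 45 CpG dinucleotides. The Mapk10 window held 1 match to TGACGTCA, at base 222, none to GGGCGG, no summit, and 8 CpG dinucleotides. The 7 and the 1 count different letters. GGGCGG was found in the promoters of 25 of 34 members (73.5%) and of 49.8% of all protein-coding genes in the table, and TGACGTCA in 1 of 34 members (2.94%) and 2.58% of genes.

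The p38 genes form neighbouring pairs, and within each pair the heights differed. Mapk14 and Mapk13 lie side by side on chromosome 17, at 28691342 to 28748405 and 28769286 to 28778704. Mapk14 had 56.5-fold at a summit 64 bp upstream of its first start, which also lies within 1 kb of Slc26a8, an anion exchanger gene. Mapk13 had 5 summits in 1 region of 2851 bp over its start, the highest at 11.9-fold and 5 bp from the start. On chromosome 15, Mapk12 (89130584 to 89141577) and Mapk11 (89142482 to 89149606) lie less than 1 kb apart. The strongest Mapk11 summit lay 2364 bp inside the gene, above the 9.74-fold at its end, and the strongest Mapk12 summit lay 247 bp downstream of its start.

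Annotated start sites were available for 34 of the 43 members, with 46 starts in all. The strongest summit of a member lay within 250 bp of a start in 25 of these 34 members (73.5%), as it did in 60.0% of the 12847 protein-coding genes that had a start and a summit. In 5 members it lay more than 1000 bp away: Map3k13, Map3k20, Map3k21, Mapk10 and Mapk11. The share of all protein-coding genes at such a distance was not computed. A summit inside a promoter window of 300 bases was found in 27 of 34 members, where 48.4% of all protein-coding genes had one, and in 32 of the 46 windows, where 44.4% of all windows had one. Within 1 kb of a start, 32 of 34 members had a summit, where 64.5% of all protein-coding genes did. The exceptions were Mapk10 and Map3k13, which encodes LZK, a relative of DLK. The strongest summit of Map3k13 lay 36964 bp inside the gene and upstream of its listed start. That start, the only one listed, is at 21891969, deep inside a gene that spans 21824056 to 21933439. No start near the 5′ end of Map3k13 was listed, and a summit of 14.6-fold lay 1801 bp from that end.

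**Figure D3:**
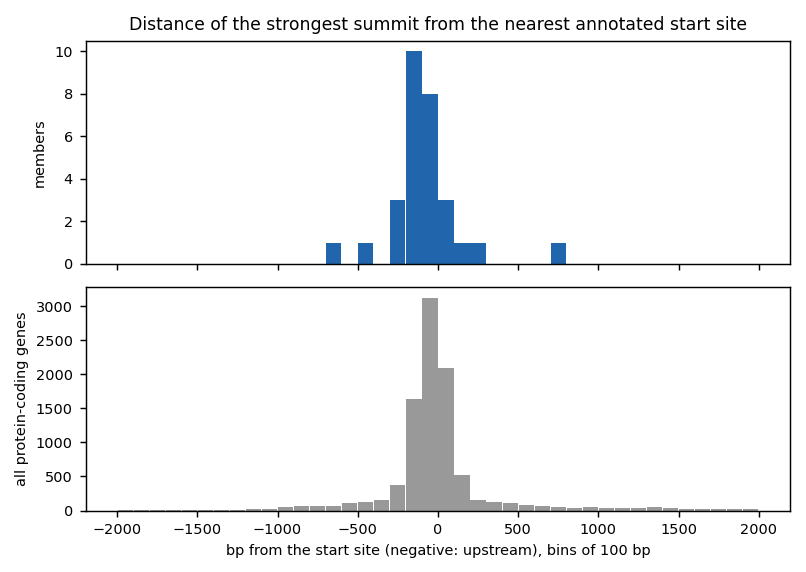
Distance of the strongest summit of each gene from its nearest annotated start site, in bins of 100 bp (horizontal axis; negative values are upstream), as the number of members (upper panel) and of all protein-coding genes (lower panel). Members peak in the bin 200 to 100 bp upstream and all genes in the bin 100 to 0 bp upstream; summits farther than 2000 bp, among them those of 5 members, are outside the axis.

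For 11 members the table lists more than 1 start, and in 4 of them a start had no summit within 1 kb. Map2k4 had 42.1-fold at its first start and none at a start 42503 bp downstream. Map2k7 had 39.3-fold at its first start and none 1365 bp downstream. Mapk8 had 56.3-fold at its first start and none 36134 bp downstream, and Mapk10 had none at either. Map2k6 was different: its first start had 19.4-fold (16.5 to 22.5) and a start 80238 bp downstream had 8.58-fold (6.75 to 10.8). In Map3k12 the second start, 6304 bp downstream, had 16.2-fold (13.7 to 19.1) and the first 12.6-fold (10.4 to 15.2), with overlapping intervals.

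The starts without a summit within 1 kb were poor in CpG dinucleotides. The 6 such member starts held between 0 and 8 CpG in their 300 bases (median 1.5), and the 40 starts with a summit held between 4 and 55 (median 24.5). Those without a summit include the start inside Map3k13 and the downstream starts of Map2k4, Map2k7 and Mapk8. Over all protein-coding starts the medians were 3 CpG without a summit and 21 with one, with ranges of 0 to 59 and 0 to 67. This description was chosen after the start sites were seen. Map3k1 and Map4k3 each held 55 CpG dinucleotides, the most of all member windows. The Map3k1 summit lay just outside the window, 290 bp upstream of the start, and the Map4k3 window held a summit of 21.4-fold.

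The letters TGANTCA, with any base in the middle, are a looser form of the site that Fos and Jun dimers bind, which has C or G there. They occurred in the promoters of 3 of 34 members (8.82%) and of 8.19% of all protein-coding genes, the same word on both strands. The members were Map3k10, Map2k6 and Map2k7, and in Map2k7 the match lay at the second start, which had no summit. The windows of Map3k10 (minus strand, chr7:27674532-27674831) and of the first Map2k6 start (plus strand, chr11:110398852-110399151), from RefSeq on GRCm38.p6, are shown because they hold both a match and a summit. Capitals mark the match.
Map3k10: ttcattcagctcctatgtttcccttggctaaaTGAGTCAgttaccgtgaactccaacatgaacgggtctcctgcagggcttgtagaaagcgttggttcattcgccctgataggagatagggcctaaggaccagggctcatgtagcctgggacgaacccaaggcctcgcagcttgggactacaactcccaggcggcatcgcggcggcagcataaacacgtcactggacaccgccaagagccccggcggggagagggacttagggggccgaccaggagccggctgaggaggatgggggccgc
Map2k6: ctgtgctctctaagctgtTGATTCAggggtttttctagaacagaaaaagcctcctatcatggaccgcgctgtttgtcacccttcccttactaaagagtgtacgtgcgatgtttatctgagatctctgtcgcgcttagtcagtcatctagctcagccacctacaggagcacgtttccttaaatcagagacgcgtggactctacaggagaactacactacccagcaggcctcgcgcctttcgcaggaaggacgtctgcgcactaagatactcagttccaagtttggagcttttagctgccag
In Map3k10 the match TGAGTCA begins at base 33 and the summit, 33.6-fold, lies at base 58. Both fall inside the neighbouring gene Zfp607b (27674661 to 27706484), so they cannot be given to Map3k10 alone. In Map2k6 the match TGATTCA, with T in the middle, begins at base 19 and the summit, 19.4-fold, lies at base 199. CCGGAAG, the core of ETS factor sites, was found in 3 of 34 members (8.82%), namely Map3k6, Map3k11 and Map4k1, and in 13.1% of genes. A match says only that these letters stand in the window.

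Away from protein-coding gene ends, 335 regions were assigned to members, and 39 of 43 members had at least 1, where 69.6% of all protein-coding genes did. The median was 5 per member and 2 per gene overall. Members with 10 or more numbered 13, where 11.9% of all protein-coding genes had so many. Of the 335 regions, 228 (68.1%) lay inside the member, 102 (30.4%) between genes and 5 inside another protein-coding gene. Their median of 4.87-fold was close to the 4.64-fold of all regions assigned to any protein-coding gene. The 43 regions at a member's end had a median of 22.3-fold, and the 15664 regions at any protein-coding gene end had 17.4-fold. Map3k10, Map3k15, Map2k7 and Mapk7 had no assigned region. The total fell to 196 where the ends of noncoding genes could also claim a region, and to 162 where a region needed a fold of at least 5.

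**Figure D4:**
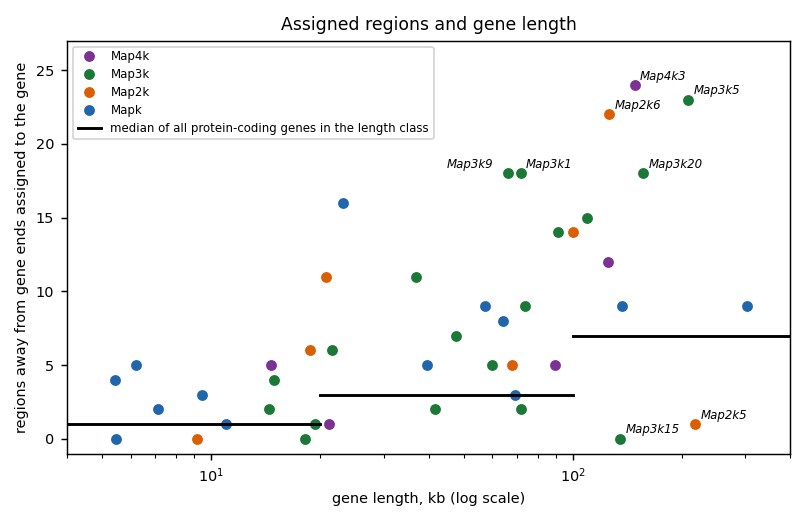
Number of regions away from protein-coding gene ends assigned to each member (vertical axis) by gene length in kb (horizontal axis, log scale), coloured by kinase tier; black lines are the medians of all protein-coding genes under 20 kb, between 20 and 100 kb and over 100 kb. Map4k3, Map3k5 and Map2k6 stand highest with 24, 23 and 22 regions, while the long genes Map3k15 and Map2k5 have 0 and 1 within the 100 kb limit.

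The count of assigned regions went with gene length, with Spearman's rho of 0.55 over the 43 members and 0.51 over all protein-coding genes, given as a description over genes of the same peak list. It hardly went with height among members, where rho with the strongest fold was 0.17, and 0.48 over all protein-coding genes. The latter set holds 5515 genes without a summit and 6576 without an assigned region. All 43 members had a summit, so these rho values do not compare like sets. Within length classes the medians were 2 for members and 1 for all genes under 20 kb, 7 and 3 between 20 and 100 kb, and 14 and 7 over 100 kb. Map4k3 had the most, 24, of which 14 lay inside the gene. Map3k5 had 23, with 22 inside, and Map2k6 had 22, with 17 inside. Map3k1, Map3k9 and Map3k20 had 18 each. Of the 18 of Map3k9, 11 lay between genes, and all 18 of Map3k20 lay inside it.

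Several of the strongest assigned regions lay inside Map3k and Map2k genes. The highest value, 82.8-fold (76.8 to 89.1), was given to Map3k12, but its summit lay 1010 bp beyond the end of Map3k12 and inside Tarbp2 (chromosome 15, 102516077 to 102523676), a gene of microRNA processing that overlaps that end. It lay just outside the 1 kb window, and it cannot be given to Map3k12 alone. The next were the 55.4-fold region in Map3k21 already described and a region in Map2k3 at chromosome 11, 60934820 to 60937161, with 44.3-fold (40.0 to 49.0), 3448 bp from the end of the gene. A region between genes 9881 bp from Map3k2 had 40.6-fold (36.4 to 45.1), close to the 43.6-fold at the end of Map3k2 itself.

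In Mapk8 a region 3333 bp inside the gene, at chromosome 14, 33443585 to 33444590, had 40.3-fold (36.2 to 44.8). Map2k6 had regions on either side that were higher than its own start. One at chromosome 11, 110544046 to 110545222, 19184 bp from the gene and inside the noncoding gene Gm11682, had 40.1-fold (36.0 to 44.6), and one at 110379105 to 110380594, 18981 bp from the other end, had 30.0-fold. The remaining regions among the 10 strongest were in Map3k20 (39.5-fold), 18558 bp outside Map3k4 (37.4-fold), in Map3k13 (31.8-fold) and in Map2k4 (31.1-fold). In 15 members the strongest assigned region exceeded the strongest summit at an outer end, as it did in 34.0% of all protein-coding genes, a share close to that of the members. An outer end is not always a start. The summits of these regions in Map2k5, Mapk12, Map3k1 and Map3k6 lay 7, 247, 290 and 700 bp from an annotated start. In Map3k6 and Map3k13 the strongest summit at an outer end lay at the 3′ end. The count therefore does not compare distal regions with promoters.

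Some values depended on the limits of the windows. With a distance limit of 25 kb the assigned regions numbered 221 in place of 335, and with a window of 2 kb the strongest summit of Map3k12 was the 82.8-fold one inside Tarbp2, in place of 16.2-fold. The farthest assigned region lay 96422 bp from an end of Map3k5, with 10.4-fold, and the nearest region beyond the 100 kb limit lay 100383 bp from an end of Map2k5, with 24.3-fold; 24 regions beyond the limit had a member as the nearest gene, 14 of them Map3k1 and 2 of them Map2k5, whose count of 1 rests on this limit. The region at an end that was farthest from it lay 935 bp from Map2k4, with 9.27-fold. In 6 members the strongest summit lay in or within 1 kb of another protein-coding gene (Map4k1, Map4k2, Map4k5, Map3k10, Map3k11 and Mapk14). The median of the other members was also 37.4-fold. How often this holds over all protein-coding genes was not computed. Whether reads were shared with related gene copies was not tested.

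The other genes of the pathway, from lists taken by function, all had a summit too, where 74.5% of all protein-coding genes did. With so few genes in each list, a full count says little about the list. The lower ones named in each list were chosen after their values were seen. Among Raf-type and other MAP3K-level kinases all 9 had one, and their median was 35.4-fold. Taok3, which encodes a kinase of the TAO group, had 57.3-fold (52.3 to 62.5), and the Raf genes Araf and Braf, whose products activate MEK1 and MEK2, had 24.2-fold and 16.2-fold. The germ cell kinase gene Mos had 3.94-fold. The Ste20-type genes Tnik and Mink1 had 25.4-fold and 22.7-fold.

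The 14 genes for scaffolds and adaptors all had one, and their median was 37.6-fold. Gadd45a, a stress-induced activator of MEKK4, had 71.5-fold (66.0 to 77.4), and Spag9, which encodes the JNK scaffold JIP4, had 63.1-fold (57.9 to 68.6). Of the 3 genes for JIP scaffolds of JNK named Mapk8ip, Mapk8ip3 had 37.4-fold (33.5 to 41.8), Mapk8ip1 had 7.77-fold and Mapk8ip2 had 6.03-fold. The 11 genes for kinases that MAP kinases activate all had one, their median was 33.7-fold, and they were led by Rps6ka5, which encodes the histone kinase MSK1, with 78.3-fold (72.5 to 84.4) and Rps6ka2 with 70.1-fold (64.7 to 76.0).

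The feedback phosphatases and the targets at the end of the cascade had higher medians than the cascade itself. The median was 37.4-fold for the 43 members, 47.4-fold for 10 dual-specificity phosphatase genes and 55.4-fold for 7 Fos and Jun genes, sets that overlapped in range and whose difference was not tested. Dusp10, which acts on JNK and p38, had 72.0-fold (66.4 to 77.9) and the ERK phosphatase gene Dusp6 had 65.3-fold (60.0 to 70.9). The lowest were Dusp9 with 12.2-fold and Dusp2, a phosphatase gene of lymphocytes, with 6.03-fold. All 7 Fos and Jun genes lay at 35.9-fold or higher, led by Jun with 76.2-fold and Jund with 64.0-fold. Below the lowest of them lay 20 of 43 members. Most protein-coding genes lay below it too, since their 75th percentile was 36.3-fold. The median number of assigned regions was 5 for members, 10 for the phosphatases and 8 for the Fos and Jun genes.

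**Figure D5:**
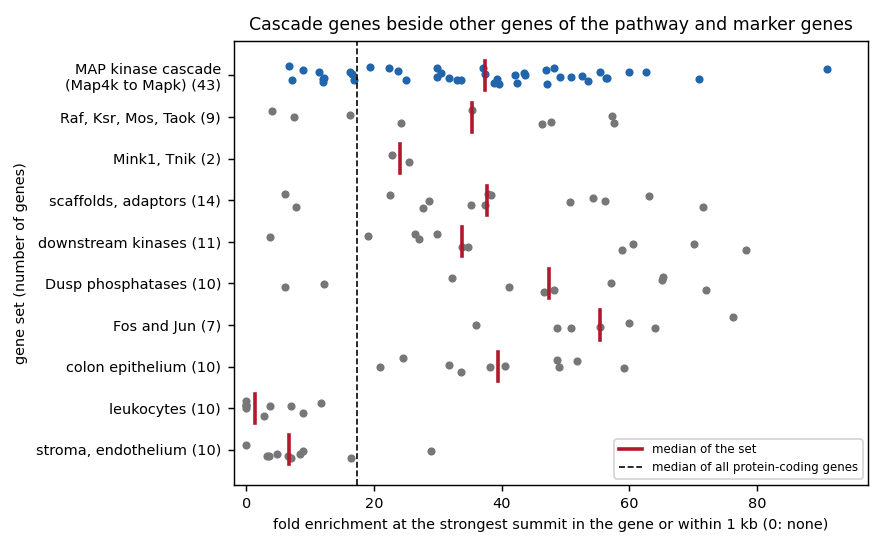
Fold enrichment at the strongest summit in the gene or within 1 kb (horizontal axis, 0 for none) for each gene of the cascade (blue) and of 9 other lists (grey), with the number of genes in brackets. Red bars are medians and the dashed line is the median of all protein-coding genes, 17.4-fold, with genes lacking a summit counted as 0. The cascade's median of 37.4-fold lies near those of its scaffolds (37.6-fold) and of the colon epithelium markers (39.4-fold), below that of Fos and Jun (55.4-fold) and above those of leukocyte (1.39-fold) and stromal markers (6.72-fold).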

How the data were processed

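Bulk ATAC-seq was analysed from 1 peak list of the series, on mm10. The tools named are Bowtie2 and MACS2, per the submitters' processing notes; versions, settings, filters and which libraries the list rests on are, in the sources used here, not given. The deposited columns are a score, a fold enrichment at the summit, and the −log10 of the p-value and of the q-value. The score is 10 times the deposited −log10 q-value cut to a whole number, in 100% of 157922 summits. The authors' fold values were whole multiples of 1 step in 100% of records (tolerance 0.01), which gave pileups of 17 to 8197 over an expected background of 7.63, and the deposited −log10 p matched a Poisson tail of these pileups. A pileup counts overlapping fragments or reads, whose extension is not given, so the 95% intervals reflect only the error of counting. Library depths are unknown.

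The 113404 regions were joined to 21627 RefSeq protein-coding genes of GRCm38.p6, the assembly mm10 represents, on 19 autosomes and X. A gene was given its strongest summit inside it or within 1 kb of its outer ends. A region was assigned if its strongest summit lay over 1 kb from any protein-coding gene end, to the gene with the nearest end within 100 kb. Start sites and promoters of 300 bases came from RefSeq for 34 members; among those not matched were Mapk3, Mapk4, Mapk15, Map3k2, Map3k8, Map3k15, Map3k19 and Map4k4. Code in Python 3.11.15 (numpy 2.4.6, pandas 2.3.3, scipy 1.17.1, matplotlib 3.10.9) was tested on simulated data.

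All members and gene lists were chosen with earlier results of these data known. Full values are given for the 3 strongest and 3 weakest members of each tier, all members of tiers with 7 or fewer, the 5 members with most assigned regions, the 10 strongest assigned regions, and in each list the 2 strongest genes and those without a summit; a few genes that this rule or these lists hold are not reported here by name, though they count in every total and median. The branches, CpG counts, 1 kb distances from start sites and printed promoters were chosen after values were seen. A planned search of the proteins was not made. Alternatives were the window, the distance limit, the peak threshold, the strongest summit only, any base of a region in the window, start sites in place of outer ends, regions above 100-fold left out and the ends of all annotated genes.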

Additional observations from a re-analysis of the deposited data

How the results depend on the processing

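Of 114 comparisons of 20 results with an alternative, 106 stayed within 1.5 times the reported value. The number of assigned regions, 335, became 221 with a distance limit of 25 kb, 204 where −log10 q had to reach 10, 162 where the fold had to reach 5 and 196 when the ends of all annotated genes competed. The median per member, 5, became 3 with the first of these thresholds and 2 with the fold threshold. Leukocyte markers with a summit numbered 5, and 3 under either stricter threshold. These settings leave fewer regions by construction. Of 172 comparisons of single members, 171 stayed within the interval, and Map3k12 reached 82.8-fold with a window of 2 kb. Leaving out weaker summits, by q-value or within a region, could hardly change a member's highest summit. Those comparisons therefore say little about stability. In alternatives added after the data were seen, 315 regions were assigned when regions had to lie away from the ends of all annotated genes, and the median strongest fold was 37.4 without members that share a summit with a neighbour. No paired analysis was possible because each group has 1 library and the list gives no value per library; for the same reason no library could be left out. Values at start sites cover 34 members, and the unknown depth limits what weak summits can show.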
